A study of Mus musculus with 8 samples.

Results

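The TRIM (tripartite motif) gene family was followed in quadriceps muscle of mice carrying a subcutaneous colorectal tumour. Members were the gene symbols made of Trim, a number and optional small letters, without Trim63 and Trim32 and with at least 10 estimated counts summed over the 8 libraries. Of 35494 symbols, 68 had this form and 66 remained without the excluded pair. Of these, 51 reached 10 counts, and 45 of the 51 passed the filter on low counts and were tested. The tumour group (scMC38) was 4 male wild-type C57BL/6 mice given 1.0 M subcutaneous cells of MC38, a line of mouse colorectal cancer. The control group was 4 male wild-type C57BL/6 mice given the same volume of PBS. All were aged 8 weeks, and quadriceps was collected on day 28. Each mouse gave 1 library, so that p-values measure the spread between these mice. In bulk muscle, fewer cells of a type and less RNA per cell cannot be told apart.

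TRIM proteins share an N-terminal module of a RING finger, B-box zinc fingers and a coiled coil, and most act as ubiquitin ligases through the RING. The C-terminal part differs between members and sorts them into classes: a COS box binds microtubules, NHL repeats bind RNA or protein, a PHD finger with a bromodomain reads chromatin, and a B30.2 (SPRY) domain binds protein targets. Striated muscle is known for its own members, the MuRF proteins at the sarcomere and MG53 in membrane repair, while many B30.2 members are known from antiviral defence.

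Of the 45 tested TRIM genes, 3 fell and none rose at an adjusted p under 0.05 in edgeR. The 3 were Trim35, Trim7 and Trim16, all of the B30.2 class, at 52.9%, 58.9% and 63.9% of the control level. Over all 14112 tested genes, 0.468% were called lower and 0.737% higher, 1.2% in all. At an unadjusted p under 0.05, 8 TRIM genes were higher and 5 lower, where 11.2% and 9.77% of all tested genes were. DESeq2 called 4 TRIM genes higher and 3 lower, where it called 5.87% of all genes higher and 4.23% lower. The median log2 fold change of the 45 genes was 0.07 (-0.02 without scMC38 1 and 3 and 0.03 without controls 1 and 2), with 27 of them positive, beside a median of 0.00 and 50.2% positive over all tested genes. The groups did not overlap in 6 TRIM genes with scMC38 higher (6.8% of all tested genes) and in 4 with scMC38 lower (6.45%). Trim10 and Trim30b, 2 of the 6, reached the filter level in no control library, so they could be tested only as higher. Both are also among the 8 higher at an unadjusted p under 0.05, and Trim10 is among the 4 called by DESeq2.

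Total counts were 52.9 to 61.7 M in scMC38 libraries and 50.5 to 62.1 M in controls. All 12 skeletal muscle fibre markers were detected and none was called, and their summed level was 129400 to 180600 counts per M (CPM) in scMC38 and 135000 to 183000 CPM in controls. The libraries scMC38 1 and 3 stood apart: neutrophil and marrow progenitor markers summed to 527 and 4795 CPM there, against 20.4 and 43.3 CPM in scMC38 2 and 4 and 6.03 to 12.8 CPM in controls. Bone cell markers summed to 77.4 and 603 CPM in scMC38 1 and 3 and to no more than 22.9 CPM in the other 6 libraries. Mitochondrially encoded genes held 24.3% and 29.7% of counts in controls 1 and 2, and 14.4% to 18.9% in the other 6. Fits without scMC38 1 and 3 and without controls 1 and 2 were therefore added. Values from them stand beside many of the results, and genes given without such values may also have changed in these fits.

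**Figure D1:**
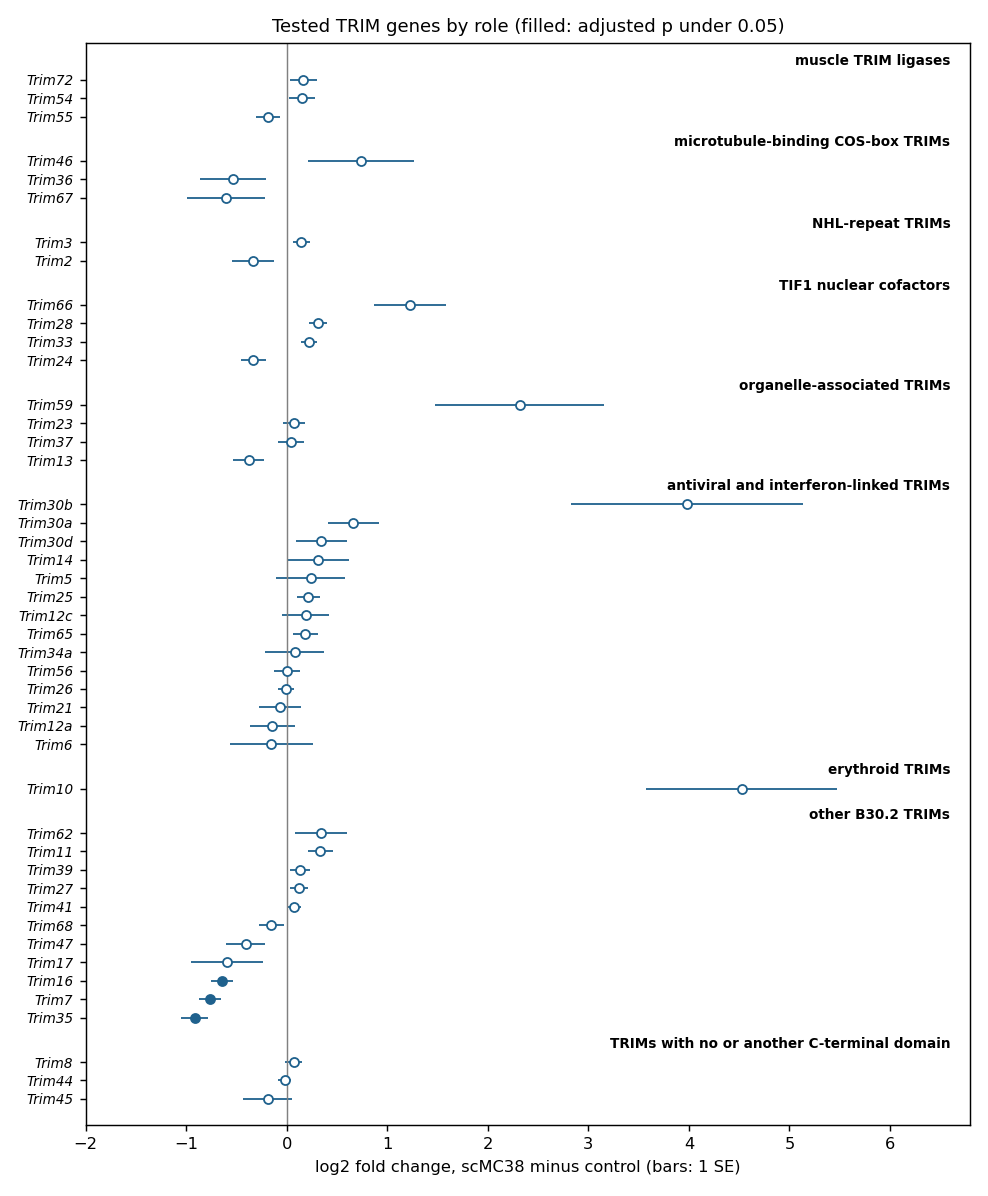
Log2 fold change of scMC38 minus control for the 45 tested TRIM genes, grouped by role, with bars of 1 SE and filled points for an adjusted p under 0.05 in edgeR. Trim35, Trim7 and Trim16 are the filled points, and Trim10, Trim30b and Trim59 lie farthest to the right with wide bars.

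The 3 called genes belong to the B30.2 genes that were placed in no other role group here, a class of 13 members, 11 of them tested. The grouping does not say whether they have antiviral roles. Trim7 encodes a ligase first described as a partner of glycogenin, the protein that primes glycogen synthesis. It lies on chromosome 11. RefSeq gives 2 windows around annotated start sites of Trim7, each from 250 bases before to 50 after the start, and they are shown because this is the called member with promoter sequence at hand. Capitals mark the antioxidant response element TGACNNNGC, the binding motif of NRF2.
Trim7 first window, chr11:48825888-48826187, plus strand, GRCm38.p6: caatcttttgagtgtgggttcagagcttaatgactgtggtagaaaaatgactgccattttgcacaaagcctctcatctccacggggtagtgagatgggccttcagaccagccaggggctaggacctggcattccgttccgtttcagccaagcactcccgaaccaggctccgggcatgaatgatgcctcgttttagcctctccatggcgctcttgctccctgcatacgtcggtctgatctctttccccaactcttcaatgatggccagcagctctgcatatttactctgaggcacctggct
Trim7 second window, chr11:48837221-48837520, plus strand, GRCm38.p6: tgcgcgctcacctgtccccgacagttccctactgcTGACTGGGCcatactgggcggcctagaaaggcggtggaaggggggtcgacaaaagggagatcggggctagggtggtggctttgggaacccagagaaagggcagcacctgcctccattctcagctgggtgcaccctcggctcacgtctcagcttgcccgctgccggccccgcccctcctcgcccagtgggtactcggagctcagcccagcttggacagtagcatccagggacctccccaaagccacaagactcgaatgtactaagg
The windows were searched on both strands for 7 motifs: the FoxO core TGTTTAC, the GATA motif AGATAA, the E-box CACGTG, the TATA box TATAAA, the antioxidant response element TGACNNNGC, the interferon response element (a pair of GAAA separated by NN) and the glucocorticoid response element (GNACA, then any NNN, then TGTNC). The first window held none of them. The second held 1 match to TGACNNNGC, which occurs in 12.4% of all 32851 promoter windows. Among TRIM genes, 5 carried it: Trim7, Trim2, Trim30b, Trim52 and Trim59. Over all TRIM genes, 38 of 51 had a window, with 50 windows in all. The FoxO core occurs in 3.65% of all windows and in that of 1 TRIM gene, Trim67. The E-box occurs in 7.15% and in 3 TRIM genes, the TATA box in 13.6% and in 5 TRIM genes, and the glucocorticoid response element in 0.475% and in 0 TRIM genes.

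Trim7 stood at 16.9, 15.6, 13.2 and 16.5 CPM in scMC38 1 to 4, against 24.2, 29.1, 23.2 and 29.1 CPM in controls 1 to 4. Every scMC38 mouse was below every control mouse. The mean was 15.5 ± 1.66 CPM in scMC38 and 26.4 ± 3.12 CPM in controls (SD, n = 4 each), a log2 fold change of -0.76 (SE 0.11, edgeR adjusted p = 0.0273). The nearest tested genes on chromosome 11 were Trim41, itself a B30.2 ligase, at 0.07 (adjusted p = 0.517), and Irgm1, an interferon-inducible GTPase, at 0.17 (adjusted p = 0.421) on the log2 fold change scale.

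Trim35 encodes a B30.2 ligase first named from haematopoietic cells and known to bind the glycolytic enzyme PKM2 in human cells. It lies on chromosome 14. Trim35 stood at 89.5, 80.5, 66.9 and 87.9 CPM in scMC38 1 to 4, against 146, 148, 189 and 131 CPM in controls 1 to 4. The groups did not overlap, and control 3 was the highest of all. The mean was 81.2 ± 10.3 CPM in scMC38 and 153 ± 24.9 CPM in controls (SD, n = 4 each), a log2 fold change of -0.92 (SE 0.14, edgeR adjusted p = 0.0299). The nearest tested genes were Ptk2b, a kinase gene, at 1.82 (adjusted p = 0.177) and Stmn4, a stathmin gene, at -1.31 (adjusted p = 0.128) on the log2 fold change scale.

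Trim16 encodes a B30.2 protein that lacks a RING finger and is known to act with galectin-3 in the clearance of damaged lysosomes. It lies on chromosome 11. Trim16 stood at 28.7, 25.2, 25.6 and 31.1 CPM in scMC38 1 to 4, against 42.7, 49.8, 36.8 and 43.8 CPM in controls 1 to 4. Again every scMC38 mouse was below every control mouse. The mean was 27.6 ± 2.79 CPM in scMC38 and 43.3 ± 5.29 CPM in controls (SD, n = 4 each), a log2 fold change of -0.65 (SE 0.11, edgeR adjusted p = 0.0352). The nearest tested genes, Zfp286 and Tvp23b, stood at -0.41 (adjusted p = 0.399) and -0.29 (adjusted p = 0.312) on the log2 fold change scale. Fbxw10, which overlaps Trim16 on the same strand, had 0.112 CPM in scMC38 and 0.190 CPM in controls.

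**Figure D2:**
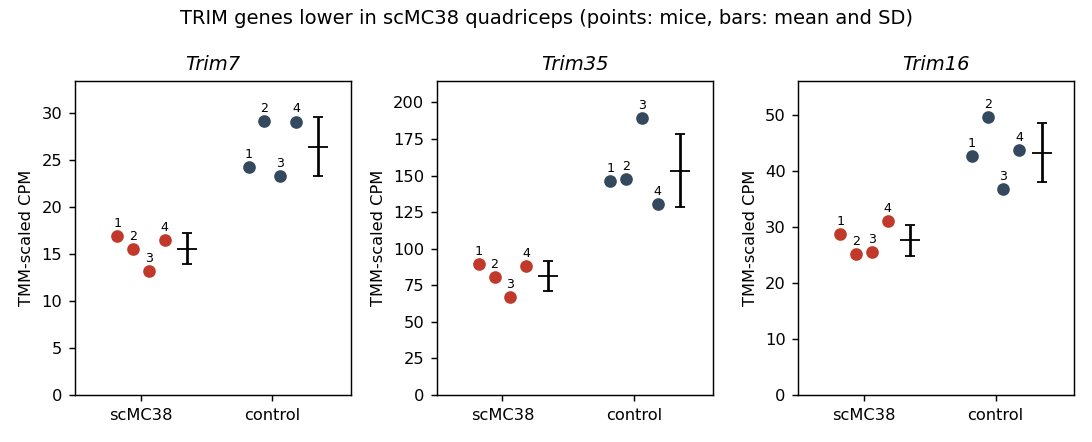
TMM-scaled CPM of Trim7, Trim35 and Trim16 in each mouse (points, numbered by replicate) with the group mean and SD beside them, scMC38 on the left and control on the right. In all 3 genes the 4 scMC38 points lie below the 4 control points.

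The calls of these genes were lost in most fits with fewer libraries, and the log2 fold changes stayed negative. When scMC38 1 and 3 were left out, the log2 fold change was -0.70 for Trim7 (adjusted p = 0.0637), -0.85 for Trim35 (adjusted p = 0.0720) and -0.60 for Trim16 (adjusted p = 0.103), so that none was called. In that fit 0.271% of all genes were called lower and 0.174% higher, and 9.27% were lower and 9.52% higher at an unadjusted p under 0.05. Without controls 1 and 2 the values were -0.76, -0.99 and -0.56 (adjusted p = 0.227, 0.227 and 0.247), in a fit that called 0 genes, with 6.05% of genes lower and 4.84% higher at an unadjusted p under 0.05. Leaving out 1 library at a time, Trim7 ranged from -0.82 to -0.70 and was called without scMC38 3 or control 4. Trim35 ranged from -0.99 to -0.80 and was called without the same libraries. Trim16 ranged from -0.72 to -0.58 and was called in none of the 8 fits (adjusted p from 0.0538 to 0.115).

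The 4 satellite cell markers, none called, were all lower on average in scMC38, with sums of 9.68 to 11.4 CPM in scMC38 and 14.5 to 19.3 CPM in controls. The 4 Schwann cell markers and 5 smooth muscle and pericyte markers, none called, were also all lower on average. Over all tested genes, 50.2% had a positive log2 fold change. Schwann cell markers summed to 22.1 to 36.2 CPM in scMC38 and 31.0 to 80.6 CPM in controls, and smooth muscle and pericyte markers to 353 to 514 CPM in scMC38 and 471 to 792 CPM in controls. Of 7 fibroblast markers, 1 was called lower, beside 0.468% of all tested genes, and 1 was higher on average. The fibroblast sums overlapped between groups, with scMC38 3 the highest at 3003 CPM, against 1012 to 1391 CPM in controls. Of 4 adipocyte markers, none was called and 1 was higher on average. The part of these cell types in the Trim7, Trim35 and Trim16 values was not tested.

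**Figure D3:**
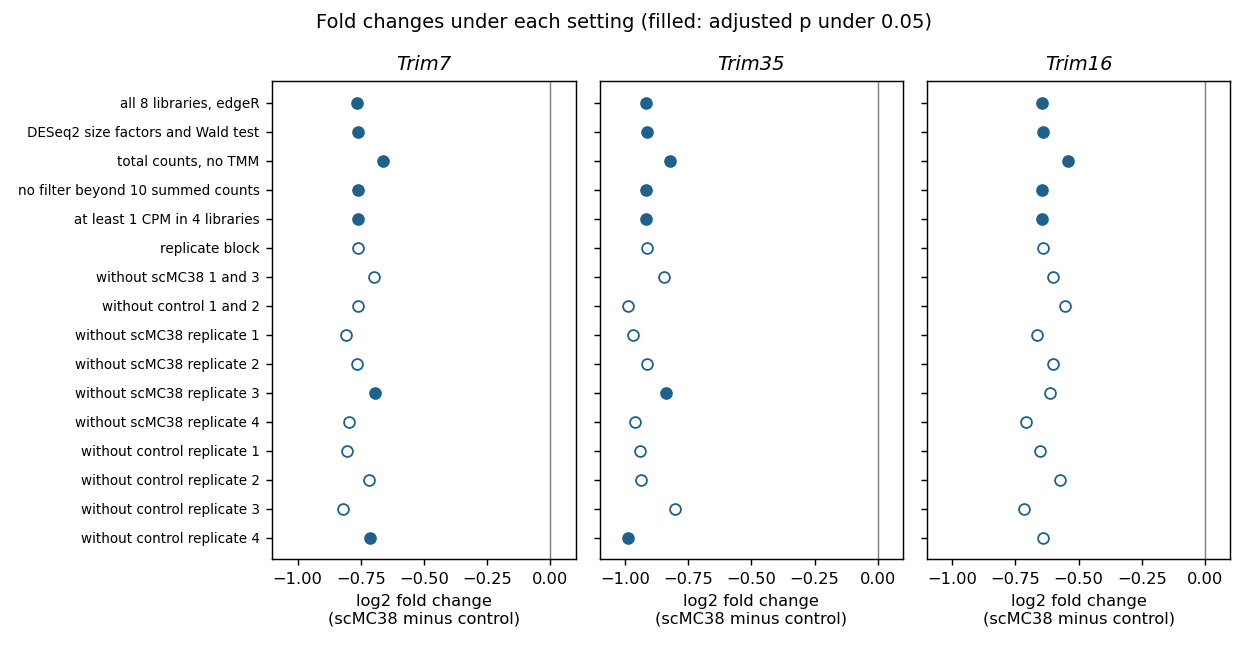
Log2 fold change of Trim7, Trim35 and Trim16 (x axis) under each setting (rows), filled where the adjusted p was under 0.05. All points lie left of 0, between -0.99 and -0.54, and most fits with fewer libraries are open.

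Among the other 8 tested genes of this class, Trim11, a RING ligase, had the smallest p. It stood at 10.1, 8.53, 11.6 and 8.17 CPM in scMC38 1 to 4, against 7.65, 7.32, 7.75 and 7.79 CPM in controls 1 to 4, with no overlap (log2 fold change 0.33, SE 0.12, adjusted p = 0.171). The difference was 0.15 without scMC38 1 and 3. The log2 fold changes of the remaining 7 (Trim17, Trim27, Trim39, Trim41, Trim47, Trim62 and Trim68) ran from -0.60 in Trim17 to 0.34 in Trim62, none called.

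The striated-muscle genes Trim54, Trim55 and Trim72 did not pass the test. Trim54 encodes MuRF3, which binds microtubules and the sarcomere. It stood at 345.5, 418.4, 304.9 and 430.3 CPM in scMC38 1 to 4, against 324.2, 312.2, 353.5 and 363.6 CPM in controls 1 to 4, and the groups overlapped. The mean was 374.8 ± 59.8 CPM in scMC38 and 338.4 ± 24.1 CPM in controls (SD, n = 4 each; log2 fold change 0.15, SE 0.13, edgeR adjusted p = 0.540). Left without scMC38 1 and 3, it was at 0.35 (adjusted p = 0.189), and without controls 1 and 2 at 0.05 (adjusted p = 0.919).

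Trim55 encodes MuRF2, a titin-binding ligase of the M-band. It stood at 63.6, 60.5, 48.0 and 64.1 CPM in scMC38 1 to 4, against 63.6, 58.1, 76.5 and 71.4 CPM in controls 1 to 4. The ranges overlapped, with scMC38 3 the lowest of the 8 (log2 fold change -0.19, SE 0.12, edgeR adjusted p = 0.390). Trim72 encodes MG53, which nucleates the repair patch at a torn muscle membrane. It stood at 183, 153, 141 and 170 CPM in scMC38 1 to 4, against 133, 153, 171 and 120 CPM in controls 1 to 4. Here too the groups overlapped (log2 fold change 0.16, SE 0.13, edgeR adjusted p = 0.505). Without scMC38 1 and 3, Trim55 was at -0.09 (edgeR adjusted p = 0.737) and Trim72 at 0.18 (adjusted p = 0.576). Without controls 1 and 2, Trim55 was at -0.34 (adjusted p = 0.446) and Trim72 at 0.14 (adjusted p = 0.776). At an unadjusted p under 0.05, edgeR had 0 of these 3 genes, and DESeq2 called 0.

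Of the pair of muscle genes left out by the member rule, Trim63, which encodes MuRF1, averaged 915 ± 267 CPM in scMC38 and 311 ± 87.1 CPM in controls (log2 fold change 1.55, SE 0.25, edgeR adjusted p = 0.0322), and was at 1.75 (adjusted p = 0.0596) without scMC38 1 and 3 and 1.37 (adjusted p = 0.283) without controls 1 and 2. Trim32, an NHL-repeat ligase linked to limb-girdle muscular dystrophy, stood at -0.01 (SE 0.11, adjusted p = 0.973).

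**Figure D4:**
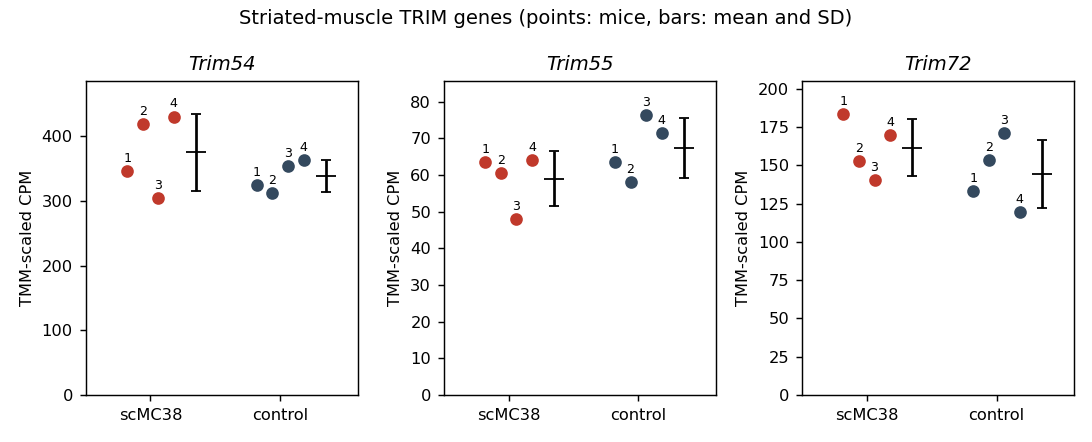
TMM-scaled CPM of Trim54, Trim55 and Trim72 in each mouse (points, numbered by replicate) with the group mean and SD, scMC38 on the left and control on the right. The groups overlap in all 3 panels.

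Partners of the muscle ligases were read from lists of related genes. Of 21 membrane repair genes, all tested, 14 had a negative log2 fold change and edgeR called 0, with 0 higher and 5 lower at an unadjusted p under 0.05 (11.2% and 9.77% of all genes) and 3 lower by DESeq2 (4.23%). Their median was -0.02 (-0.17 without scMC38 1 and 3 and -0.14 without controls 1 and 2). The smallest p belonged to Cavin1, a caveolar coat gene, at -0.39 (SE 0.11, adjusted p = 0.0973), and Cav3, muscle caveolin, at -0.37 (SE 0.11, adjusted p = 0.112). Both were lower in all 4 scMC38 mice than in any control. This held for 5 of the 21 genes, beside 6.45% of all tested genes, and 0 of the 21 lay wholly above the controls. Of 17 genes of the titin M-band and of MuRF partners, edgeR called 0, with 2 higher and 2 lower at an unadjusted p under 0.05 (median 0.10). DESeq2 called 1 in each direction, where it called 5.87% of all genes higher and 4.23% lower. Sqstm1, the autophagy receptor p62, was at 0.39 (SE 0.12, adjusted p = 0.118) and Myl1, a fast myosin light chain, at -0.65 (SE 0.22, adjusted p = 0.147).

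Of 19 genes for ubiquitin and for the E1 and E2 enzymes that charge TRIM ligases, edgeR called 0 (median -0.08). At an unadjusted p under 0.05, 3 were higher and 3 lower, where 11.2% and 9.77% of all tested genes were. DESeq2 called 1 in each direction, where it called 5.87% of all genes higher and 4.23% lower. Ubb, a polyubiquitin gene, stood at 0.50 (SE 0.10, adjusted p = 0.0510). Ube2n, which encodes the lysine-63 chain enzyme Ubc13, stood at -0.29 (SE 0.06, adjusted p = 0.0610). In both genes the groups did not overlap. In the whole list this held for 1 gene with scMC38 higher and 2 with scMC38 lower, beside 6.8% and 6.45% of all tested genes. Of 9 TRIM proteins and relatives without a Trim symbol, 6 were tested and Fsd1l fell, where edgeR called 0.468% of all tested genes lower. In this list 1 was higher and 2 lower at an unadjusted p under 0.05, and DESeq2 called 1 lower (median 0.01). Fsd1l encodes a fibronectin III and SPRY domain protein. It stood at 5.56, 6.18, 4.26 and 5.92 CPM in scMC38 1 to 4, against 10.4, 9.79, 10.4 and 12.0 CPM in controls 1 to 4 (log2 fold change -0.96, SE 0.13, edgeR adjusted p = 0.0256). It was at -0.79 (adjusted p = 0.0533) without scMC38 1 and 3, and the call was also lost without scMC38 1 and without controls 1, 2 or 3 (adjusted p up to 0.0963), and without controls 1 and 2 together (-1.04, adjusted p = 0.216).

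In all 4 nuclear cofactors of the TIF1 class the scMC38 and control mice did not overlap, although edgeR called 0 of 4. Over all tested genes, 6.8% did not overlap with scMC38 higher and 6.45% with scMC38 lower. At an unadjusted p under 0.05, 3 were higher and 1 lower, beside 11.2% and 9.77% of all genes, and DESeq2 called 2 higher, beside 5.87%. Trim28 encodes KAP1, the corepressor that KRAB zinc finger proteins bring to retroelements. It stood at 47.0, 45.6, 57.0 and 48.0 CPM in scMC38 1 to 4, against 39.3, 36.6, 42.2 and 41.5 CPM in controls 1 to 4 (log2 fold change 0.31, SE 0.09, edgeR adjusted p = 0.115). The lowest scMC38 mouse was above the highest control. Zbtb45, on the opposite strand and overlapping Trim28, was at -0.01 (adjusted p = 0.970).

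Trim33 encodes TIF1-gamma, a ligase that acts on SMAD complexes. It stood at 18.9, 18.9, 17.1 and 17.4 CPM in scMC38 1 to 4, against 16.1, 13.8, 16.2 and 16.1 CPM in controls 1 to 4 (0.22, SE 0.08, edgeR adjusted p = 0.171). Trim66, a TIF1 member that binds HP1 and is known from testis, stood at 0.624, 0.624, 0.840 and 0.669 CPM in scMC38 1 to 4 and 0.351, 0.240, 0.440 and 0.146 CPM in controls 1 to 4 (1.23, SE 0.36, edgeR adjusted p = 0.115). Trim24 encodes TIF1-alpha, a nuclear receptor cofactor, and ran the other way. It stood at 42.1, 49.5, 37.6 and 50.4 CPM in scMC38 1 to 4, against 53.7, 52.7, 51.8 and 68.2 CPM in controls 1 to 4 (-0.33, SE 0.13, edgeR adjusted p = 0.184).

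DESeq2 gave Trim28 an adjusted p of 0.0257 and Trim66 one of 0.0331. Over the alternatives these ran up to 0.485 and 0.466. On the log2 fold change scale, Trim28 was at 0.25, Trim33 at 0.24, Trim66 at 1.15 and Trim24 at -0.16 without scMC38 1 and 3, and at 0.23, 0.15, 1.22 and -0.43 in the same order without controls 1 and 2. Of 23 partners of KAP1 and the TIF1 proteins, edgeR called 0, with 8 higher and 1 lower at an unadjusted p under 0.05 (11.2% and 9.77% of all genes) and 4 higher by DESeq2 (5.87% of all genes). Their median was 0.12. Morc3, a chromatin ATPase gene, was at 0.29 (SE 0.07, adjusted p = 0.0895) and Atf7ip, which encodes a partner of the methyltransferase SETDB1, at 0.28 (SE 0.08, adjusted p = 0.101).

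The antiviral and interferon-linked genes had 15 members and 14 tested, with 10 positive and 4 negative log2 fold changes. None was called by edgeR, nor by DESeq2, which gave no adjusted p for Trim30b. At an unadjusted p under 0.05, 2 were higher and 0 lower, beside 11.2% and 9.77% of all tested genes. Trim30b, 1 of the 2, reached the filter level in no control library, so it could be tested only as higher. Of the 15, 13 had a RefSeq promoter window, and 8 carried the interferon response element (GAAA on both sides of NN) in it. This element occurs in 3.44% of all windows. Among TRIM windows it occurs in 10 of 50, in these 8 genes and in Trim2, an NHL-repeat member. Stretches of 40 bases around the first match are shown for 7 of the 8, all but Trim26. They display the shared motif and how nearly alike some of these genes are. Capitals mark the motif in either orientation, the sequences read in the direction of the gene, and the build is GRCm38.p6. In Trim21 the capitals cover 2 overlapping matches.
Trim5, chr7:104288131-104288170, minus strand: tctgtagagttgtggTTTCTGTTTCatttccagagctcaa
Trim12a, chr7:104315461-104315500, minus strand: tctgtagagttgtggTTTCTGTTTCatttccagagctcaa
Trim12c, chr7:104353354-104353393, minus strand: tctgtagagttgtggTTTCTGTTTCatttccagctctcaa
Trim30a, chr7:104465205-104465244, minus strand: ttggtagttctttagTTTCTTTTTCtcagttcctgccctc
Trim30d, chr7:104507866-104507905, minus strand: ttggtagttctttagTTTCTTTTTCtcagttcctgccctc
Trim34a, chr7:104244452-104244491, plus strand: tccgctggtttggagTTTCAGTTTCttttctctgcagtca
Trim21, chr7:102565445-102565484, minus strand: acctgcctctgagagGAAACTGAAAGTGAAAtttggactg
The stretches of Trim5 and Trim12a were identical in 40 of 40 bases, and Trim12c shared 38 of 40 with each. That of Trim30a shown here and that of Trim30d were also identical in 40 of 40, while a stretch at another Trim30a start, not shown, shared 33 of 40 with Trim30d. Trim5, Trim12a and Trim12c are close paralogs, as are the Trim30 genes, so how their reads were divided is uncertain, and the likeness of their transcripts was not measured. The 8 genes with the motif had log2 fold changes from -0.15 to 0.66, and from -0.49 to 0.25 without scMC38 1 and 3.

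Trim30a, a rodent regulator of NF-kB signalling, stood at 5.50, 4.48, 9.05 and 4.14 CPM in scMC38 1 to 4, against 3.16, 4.45, 3.51 and 3.57 CPM in controls 1 to 4. The groups overlapped, and scMC38 3 was highest (log2 fold change 0.66, SE 0.25, edgeR adjusted p = 0.189). Its paralog Trim30b stood at 0.489, 0.189, 3.81 and 0.256 CPM in scMC38 1 to 4, against 0.0167, 0.166, 0.0600 and 0.0546 CPM in controls 1 to 4. The groups did not overlap, and scMC38 3 held most of the signal (3.98, SE 1.15, edgeR adjusted p = 0.113). Trim30b passed the low-count filter through scMC38 libraries alone. It was at 1.59, and Trim30a at 0.25, without scMC38 1 and 3, and they were at 4.31 and 0.70 without controls 1 and 2.

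Macrophage markers summed to 479, 305, 614 and 150 CPM in scMC38 1 to 4 and to 138 to 194 CPM in controls, with all 12 detected and all 12 higher on average in scMC38. Their part in the Trim30 values was not tested. Trim25, the ligase known to ubiquitinate the RNA sensor RIG-I, stood at 14.5, 15.1, 18.9 and 14.0 CPM in scMC38 1 to 4, against 14.5, 14.4, 13.2 and 11.9 CPM in controls 1 to 4, with overlap (0.21, SE 0.11, edgeR adjusted p = 0.319). The log2 fold changes of the 14 tested genes ran from -0.15 to 3.98, and their median was 0.18 (-0.09 without scMC38 1 and 3 and 0.06 without controls 1 and 2). Of 29 tested genes of antiviral sensing and interferon signalling, Sting1 rose and none fell, beside 0.737% and 0.468% of all tested genes. The median of the 29 was 0.10 (-0.08 without scMC38 1 and 3 and 0.16 without controls 1 and 2). At an unadjusted p under 0.05, 3 were higher and 1 lower, where 11.2% and 9.77% of all genes were. DESeq2 called 2 higher and 1 lower, where it called 5.87% and 4.23% of all genes. Sting1, the adaptor of the cGAS DNA sensor, averaged 6.59 ± 1.92 CPM in scMC38 and 2.75 ± 0.258 CPM in controls (SD, n = 4 each; log2 fold change 1.26, SE 0.20, edgeR adjusted p = 0.0322), and was called at 1.03 (adjusted p = 0.0478) without scMC38 1 and 3. The call was lost without scMC38 1 or 2, or without any 1 control (adjusted p up to 0.104), and without controls 1 and 2 together (1.37, adjusted p = 0.247).

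The erythroid members Trim10 and Trim58 were high in scMC38 1 and 3. Trim10, a B30.2 protein needed for terminal red cell differentiation, lies on chromosome 17. Its RefSeq window is shown because it carries the reverse complement of AGATAA, the motif of the red cell factor GATA1, in capitals. AGATAA occurs in 11.2% of all windows, and in those of 3 TRIM genes, Trim10, Trim39 and Trim72.
Trim10, chr17:36869324-36869623, plus strand, GRCm38.p6: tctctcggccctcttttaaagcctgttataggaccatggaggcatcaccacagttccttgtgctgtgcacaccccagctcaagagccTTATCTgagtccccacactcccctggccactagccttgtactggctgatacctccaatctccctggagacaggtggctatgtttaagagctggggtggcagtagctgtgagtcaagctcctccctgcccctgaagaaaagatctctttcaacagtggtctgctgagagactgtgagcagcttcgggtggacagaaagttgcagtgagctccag
Trim10 stood at 2.68, 0.340, 3.80 and 0.532 CPM in scMC38 1 to 4, against 0.0335, 0.184, 0.0600 and 0.0364 CPM in controls 1 to 4. The groups did not overlap, and scMC38 1 and 3 were well above scMC38 2 and 4 (log2 fold change 4.52, SE 0.95, edgeR adjusted p = 0.0683). The value was 2.47 (adjusted p = 0.137) without scMC38 1 and 3 and 5.19 (adjusted p = 0.330) without controls 1 and 2. DESeq2 gave 4.55 (adjusted p = 2.51e-05), and over the alternatives the adjusted p reached 0.330. Trim10 passed the filter through scMC38 libraries alone, as Trim30b did.

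Trim58, a ligase of late erythroblasts, was too low to be tested. It had 20, 1, 17 and 1 counts in scMC38 1 to 4 and 0 in every control. Its 39 summed counts, by which it became a member, thus all came from scMC38, so no fold is read from it. A count of 0 allows up to 3 counts over the control group, for counting error only. Erythroid markers were detected for all 12 genes of the list, with all 12 higher on average in scMC38. Only 8 of the 12 were tested, and edgeR called 7 of the 8 higher, beside 0.737% of all tested genes. Rhag was at 0 in at least 4 libraries, and none of the 12 was at 0 in all. The markers summed to 2641, 1668, 2900 and 1643 CPM in scMC38 1 to 4 and to 501 to 1086 CPM in controls. Their part in the Trim10 and Trim58 values was not tested.

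**Figure D5:**
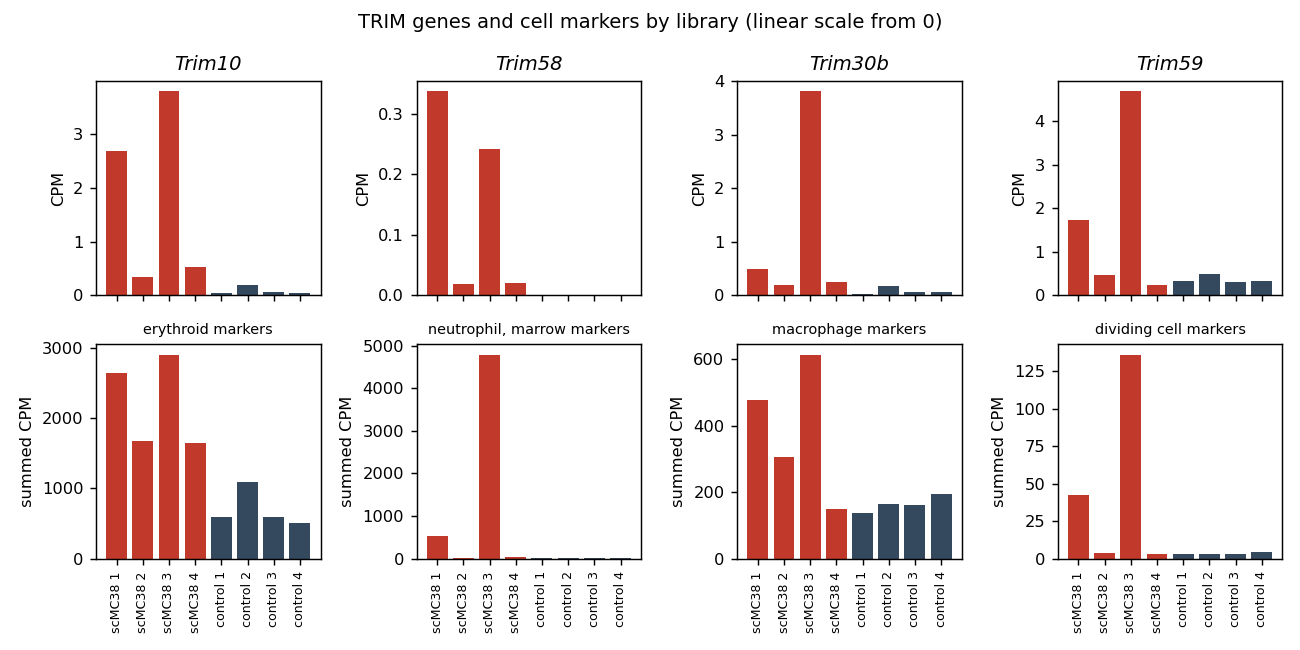
CPM of Trim10, Trim58, Trim30b and Trim59 (upper row) and summed CPM of erythroid, neutrophil and marrow progenitor, macrophage and dividing cell markers (lower row) in each library, scMC38 in red and control in dark blue, on linear axes from 0. The TRIM genes reach their highest bars in scMC38 1 or 3, and so do the marker sums.

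The 4 organelle-associated genes, which carry an ARF, MATH or transmembrane segment, had none called by edgeR. At an unadjusted p under 0.05, 1 was higher and 1 lower, beside 11.2% and 9.77% of all tested genes. DESeq2 called 1 higher, beside 5.87%. Trim59, a membrane-anchored ligase, stood at 1.72, 0.454, 4.68 and 0.236 CPM in scMC38 1 to 4, against 0.318, 0.480, 0.300 and 0.328 CPM in controls 1 to 4. It was high in scMC38 1 and 3, while scMC38 2 and 4 lay near the controls (log2 fold change 2.32, SE 0.84, edgeR adjusted p = 0.168). Without scMC38 1 and 3 it was at -0.02, and DESeq2 over all libraries gave an adjusted p of 0.0392, in a range up to 0.985 over the alternatives. Dividing cell markers, all 8 detected, summed to 42.1, 3.38, 136 and 3.27 CPM in scMC38 1 to 4 and to 2.79 to 4.55 CPM in controls, and their part in the Trim59 value was not tested.

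Trim13, an endoplasmic reticulum ligase linked to ER-phagy, stood at 5.78, 5.47, 5.31 and 6.26 CPM in scMC38 1 to 4, against 9.74, 6.84, 7.05 and 6.04 CPM in controls 1 to 4, with overlap through control 4 (-0.38, SE 0.16, edgeR adjusted p = 0.211). Trim23, whose ARF domain binds GTP, averaged 34.0 ± 4.39 CPM in scMC38 and 32.3 ± 3.06 CPM in controls (SD, n = 4 each; 0.07, SE 0.11, edgeR adjusted p = 0.744).

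The microtubule-binding and NHL-repeat members, some of them known from neurons, overlapped between groups. In both classes edgeR and DESeq2 called 0, with 0 at an unadjusted p under 0.05. Trim36, Trim46 and Trim67, which carry a COS box, averaged 0.592 ± 0.0873, 0.360 ± 0.238 and 0.414 ± 0.174 CPM in scMC38, against 0.856 ± 0.363, 0.217 ± 0.0942 and 0.630 ± 0.210 CPM in controls (SD, n = 4 each). Their log2 fold changes were -0.53, 0.74 and -0.61, with SE between 0.33 and 0.52. Trim46 was at -0.15 without scMC38 1 and 3 and at 0.18 without scMC38 3 alone. Krtcap2, which overlaps Trim46 on the opposite strand, was at -0.03 and not called. Trim2, a ligase of neurofilament light chain, averaged 3.99 ± 1.08 CPM in scMC38 and 5.04 ± 0.745 CPM in controls (-0.33, SE 0.21, edgeR adjusted p = 0.384). Trim3, its close NHL relative, averaged 14.0 ± 1.25 CPM in scMC38 and 12.7 ± 0.427 CPM in controls (0.14, SE 0.08, edgeR adjusted p = 0.348).

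Among the members with no or another C-terminal domain, 3 were tested and overlapped between groups, with 0 called by edgeR or DESeq2 and 0 at an unadjusted p under 0.05. Trim8 stood at 0.07 (SE 0.08), Trim44, which lacks a RING, at -0.02 (SE 0.06) and Trim45 at -0.19 (SE 0.24) on the log2 fold change scale. Trim44 averaged 32.8 ± 0.571 CPM in scMC38, against 33.3 ± 1.93 CPM in controls (SD, n = 4 each).

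The 6 members not tested were Trim29, Trim30c, Trim43a, Trim43b, Trim52 and Trim58, with 26.8 to 61 summed counts. Of the 61 counts of Trim29, 43 came from control 4. The lowest member over the threshold of 10 counts was Trim43b with 26.8, and the highest symbols under it were Trim9 and Trim80 with 9 each. Of the 15 symbols under the threshold, 6 (Trim31, Trim42, Trim50, Trim60, Trim61 and Trim75) had 0 counts among the 451 M counts of all libraries, which allows up to 3 counts each.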

How the data were processed

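Bulk RNA sequencing was done on quadriceps of 8 mice. Per the labels' protocols, RNA came from RNeasy Mini columns and libraries from the Universal Plus mRNA-seq kit. Per the submitters' processing notes, fastp 1.0.1, FastQC 0.12.1, MultiQC 1.30, Salmon 1.10.3, R 4.4.3 and the build GRCm39 were used, with no role or order. The authors deposited unscaled estimated counts per gene, and 49.3% of nonzero values are fractional. How transcripts were summed and whether strand was used is not given in the sources used, so overlapping genes may share reads.

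Columns were matched to samples by library name. Rows without a symbol (144, at most 0.00403% of a library) were left out, repeated symbols summed and counts rounded. edgeR 4.0.16 in R 4.3.3 was run with TMM scaling, filterByExpr (minimum count 10, total 15) and a robust quasi-likelihood test of scMC38 minus control, with Benjamini-Hochberg adjustment over 14112 genes and a threshold of 0.05. SE follows from the fold change and its F statistic, and CPM are TMM-scaled. DESeq2 1.42.0, other scalings and filters, a replicate block and fits with libraries left out were alternatives. The code was tested on simulated data. Totals were 50.5 to 62.1 M counts, and the common biological coefficient of variation was 27.3%. Libraries of a group differed far beyond counting noise (chi-square per degree of freedom 63.2 to 480), so each was 1 replicate.

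The members, role groups and lists were chosen with earlier results of these data known. The genes named with values were Trim54, Trim55 and Trim72, called members, members whose groups did not overlap, the 3 members of each role group with the smallest p, and of each related list the called genes or the 2 with the smallest p. Members without a test, the other B30.2 genes, and neighbouring and overlapping genes were named after their values were seen. Neighbours and chromosomes come from GENCODE M21 and promoter windows from RefSeq, both on GRCm38.p6, an earlier build than that of the files.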

Additional observations from a re-analysis of the deposited data

Results flagged for a closer look

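Among the 26 TRIM genes of the naming rule, 52 groups of 4 mice were examined for a mouse far from the other 3 in its group. In 5 groups there was one. Chance gives about 1 in 20 groups. In scMC38, mouse 3 was low for Trim23 (27.4 CPM against 35.9 to 36.6 CPM in the other 3) and high for Trim30b (3.81 CPM against 0.189 to 0.489 CPM). In controls, mouse 4 was high for Trim24 (68.2 CPM against 51.8 to 53.7 CPM), and mouse 2 was low for Trim33 (13.8 CPM against 16.1 to 16.2 CPM) and high for Trim59 (0.480 CPM against 0.300 to 0.328 CPM).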

How the results depend on the processing

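Trim7, Trim35 and Trim16 kept a negative log2 fold change in all 15 alternatives and stayed called with DESeq2, total counts and both other filters. The replicate numbers did not pair the mice (correlations of same-numbered deviations from -0.28 to -0.01). In the fit with the replicate block, all-gene calls were 0 higher and 1 lower, with 0 TRIM genes, and the 3 genes stood at -0.76, -0.91 and -0.64 (adjusted p = 0.145, 0.186 and 0.179). TRIM genes called lower were 0 without scMC38 1 and 3 and 0 without controls 1 and 2, both added after seeing the data, and 0 to 2 with 1 library left out. TRIM genes called higher were 4 with DESeq2 and 0 in every other alternative. Over all genes, calls higher and lower were 104 and 66 in the reported fit, 829 and 597 with DESeq2, 221 and 55 with total counts, 66 and 46 with no filter beyond 10 summed counts, 25 and 39 without scMC38 1 and 3, and 0 and 0 without controls 1 and 2. With 1 library left out they ranged from 1 to 59 higher and from 1 to 52 lower. The median of the TRIM genes was 0.18 with total counts, which shifted the median of all genes by 0.11, and -0.0218 without scMC38 1 and 3. It was 0.05 to 0.11 with 1 library left out, where 25 to 29 TRIM genes were positive. Signs over all alternatives were followed only for the 26 TRIM genes of the naming rule, and turned for 5 of them. None of the 5 was called by edgeR, and Trim59 was called by DESeq2 (adjusted p = 0.0392). Trim44 turned with total counts (0.0867), without controls 1 and 2 (0.0118) and within its range with 1 library left out (-0.0486 to 0.0156). Trim8 (-0.00745) and Trim45 (0.0311) turned without controls 1 and 2, and Trim46 (-0.15) and Trim59 (-0.0218) without scMC38 1 and 3. Other TRIM genes turned too, such as Trim14 without controls 1 and 2 (0.31 to -0.02). Trim5 turned without scMC38 1 and 3 (0.24 to -0.25). The cause was not tested.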

Other observations

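Some tested genes that lie near a TRIM gene in the GENCODE M21 order were called, although the TRIM gene was not. Most neighbouring genes examined were not called, and over all tested genes edgeR called 1.2%. The choice of these genes followed their values. The adult beta-globin genes Hbb-bt (log2 fold change 1.91, edgeR adjusted p = 0.0315) and Hbb-bs (1.56, adjusted p = 0.0425) lie between Trim68 and Trim6 on chromosome 7, and as close paralogs they may share reads, which was not measured. Trim68 stood at -0.16 (adjusted p = 0.499) and Trim6 at -0.15 (adjusted p = 0.860). Tent5c, a poly(A) polymerase gene near Trim45 on chromosome 3, rose by 1.48 (adjusted p = 0.0162), and Trim45 stood at -0.19. Fjx1, next to Trim44 on chromosome 2, rose by 1.77 (adjusted p = 0.0315), and Trim44 stood at -0.02. Anp32b, a histone chaperone gene next to Trim14 on chromosome 4, rose by 0.48 (adjusted p = 0.0435), and Trim14 stood at 0.31 (adjusted p = 0.596).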
